A study of Arabidopsis thaliana with 13 samples.

Results

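Day 8 of floral induction was compared with day 2 in miRNA-seq libraries of *Arabidopsis thaliana* inflorescences, with 3 libraries of each day. These are 6 of the 13 libraries of the series, and the other 7 are of day 0, day 4 and seedlings. All 6 libraries were compared in miRNA genes with a value of 1 RPM or more (RPM are reads scaled to the mapped reads of the library) in 2 or more of the 6, which left 122 of the 325 miRNA genes in the table. Day 8 and day 2 plants were alike pAP1:AP1:GR *ap1 cal* plants of ecotype Landsberg. They were grown in long days and given dexamethasone (DEX), and their inflorescences were harvested 8 days or 2 days after the first treatment. By the methods, the inflorescences of day 0 and day 4, used beside them below, are of the same line. The labels give DEX on day 4 and none on day 0, so day 2 against day 0 also differs in DEX. The plants lack functional AP1 and CAL and carry an AP1-GR fusion protein expressed from the AP1 promoter, which enters the nucleus on DEX. All libraries thus share the double mutant background and the transgene, and the inflorescences hold flowers that started to develop at about the same time. The concentration of DEX differs between the labels, the series description and the methods, and the labels name kits for total RNA where the methods name kits for small RNA. 1 day 2 library, replicate 1, carries a time label of 0 days beside its day 2 title and DEX as its agent, and was kept as day 2. Only miRNA genes are in the table, so the tissue label could not be set against marker mRNAs. Nothing in the labels says that replicates came from separate batches of plants, so a p-value here sets a difference against library-to-library spread, which may be technical in part. In bulk inflorescences, fewer cells that make an miRNA and less of it per cell cannot be told apart.

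Plant miRNAs are cut from hairpin precursors by DCL1 and loaded into AGO1, where they guide the cleavage or the translational repression of mRNAs with near-complete complementarity. Many conserved plant miRNAs target transcription factors, and several act in flowers. miR172 represses AP2-like genes, miR319 represses TCP genes of organ growth, miR164 restricts the CUC genes of organ boundaries and miR167 restricts *ARF6* and *ARF8*, which act in floral organ maturation. Members of a family come from different loci and often share their mature sequence, so that a count per locus needs a read that maps to 1 place only.

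The deposited run table places day 8 in the last of 3 sequencing runs, together with day 4, and day 2 in the run before it, together with day 0. Day 8 against day 2 is therefore also a difference between runs, each run holds only 1 of these days, and the day and the run cannot be told apart. Day 8 against day 4 lies within a run and shares the day 8 libraries, and its values are given beside those of the main comparison. A further property of the loci lies in their sequences. A read that fits several places of the genome is not in the gene counts of STAR. For 39 of the 325 loci, a mature sequence becomes unique in the genome only with its last base or with the base that follows, and such loci are called end-dependent here. How many reads of each library reach that base cannot be read from a table of counts per locus. Some other loci, such as *MIR168a*, *MIR858b* and *MIR5995b*, carry a mature sequence found at several places even with the next base. Reads of exactly such a sequence are not in their counts. The same holds for end-dependent loci whose mature sequence is unique only with the next base. Among these are *MIR319a*, *MIR319b*, *MIR164a*, *MIR164b*, *MIR167a*, *MIR399b*, *MIR781a* and *MIR781b*.

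For the families whose loci differed in opposite directions, the mature miRNAs that differ in or after the last bases are shown first. The other annotated arms, miR159b-5p, miR396a-3p and miR396b-3p, are not shown. Each of these arms is found at 1 place of the genome, and the seeds of miR396a-3p and miR396b-3p differ. The sequences shown were read from the RefSeq genome of build TAIR10.1, 5′ to 3′, and the seed (bases 2 to 8) is in capitals.
miR319a: uUGGACUGaagggagcucccu
miR319b: uUGGACUGaagggagcucccu
miR319c: uUGGACUGaagggagcuccuu
miR159a: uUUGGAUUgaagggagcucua
miR159b-3p: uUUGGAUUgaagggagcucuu
miR159c: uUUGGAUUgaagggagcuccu
miR396a-5p: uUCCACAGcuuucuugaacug
miR396b-5p: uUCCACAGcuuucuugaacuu
miR319a and miR319b are identical, and with positions counted from 1 at the 5′ end miR319c differs from both by C20U. miR159a differs from miR159b-3p by A21U, and miR159b-3p differs from miR159c by U20C. miR396a-5p differs from miR396b-5p by G21U. In the genome, the base after the mature sequence differs between *MIR319a* and *MIR319b*, and is shown here in capitals.
miR319a with the next base: uuggacugaagggagcucccuC
miR319b with the next base: uuggacugaagggagcucccuA
miR319c and miR159c are found at 1 place of the genome also without the last base, and *MIR319c* and *MIR159c* are not end-dependent.

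The summed RPM of all miRNA genes was 30879 ± 1148 on day 8 and 25918 ± 2866 on day 2 (SD, n = 3 each), or 2.96% to 3.18% of mapped reads on day 8 and 2.28% to 2.85% on day 2. The libraries of the days did not overlap. The loci that differed most in RPM were *MIR158a* (4338 more on day 8), *MIR319c* (2890.5 more) and *MIR161* (1415 more), against *MIR319b* (a difference of -2696) and *MIR159b* (-1626). Between 125 and 135 miRNA genes were above 0 on day 8 and between 137 and 138 on day 2. The step between low values gave an estimated 1161531 to 1576151 mapped reads per day 8 library and 1360793 to 2142752 per day 2 library. A gene listed at 0 may thus have up to 3 reads, or 1.90 to 2.58 RPM in a day 8 library and 1.40 to 2.20 RPM in a day 2 library, which covers counting error only.

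The test was limma on log2(RPM + 1). It was fitted to 10 inflorescence libraries and its p-values were adjusted over 122 loci. The added 1 makes fold changes of low loci too small. Of the 122 loci, 52 passed an adjusted p of 0.05 (42.6%), 34 higher on day 8 (27.9%) and 18 lower on day 8 (14.8%). The 3 libraries of day 8 lay wholly above or below those of day 2 in 60 loci (49.2%), among them 32 of the 34 higher and 17 of the 18 lower loci. Among those that passed, 40 also differed by more than 2-fold. The median log2 fold change over all tested loci was 0.23. RPM is relative to all mapped reads, and scaling by the miRNA genes themselves moved that median to 0.00995 (median-ratio), -0.038 (upper quartile) and 0.046 (the authors' quantile normalization). Higher and lower loci then numbered 26 and 24 under median-ratio scaling, 21 and 22 under upper-quartile scaling, and 27 and 17 under quantile normalization. More loci were thus higher than lower on day 8 by RPM and by quantile normalization, and about as many were higher as lower under the other scalings. Within the last run, day 8 against day 4 gave 21 loci that passed (17.2%), 17 higher on day 8 (13.9%) and 4 lower (3.28%). Day 2 against day 0, within the run before it, gave 0 by limma (0%), with 10 loci at an unadjusted p under 0.05.

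**Figure D1:**
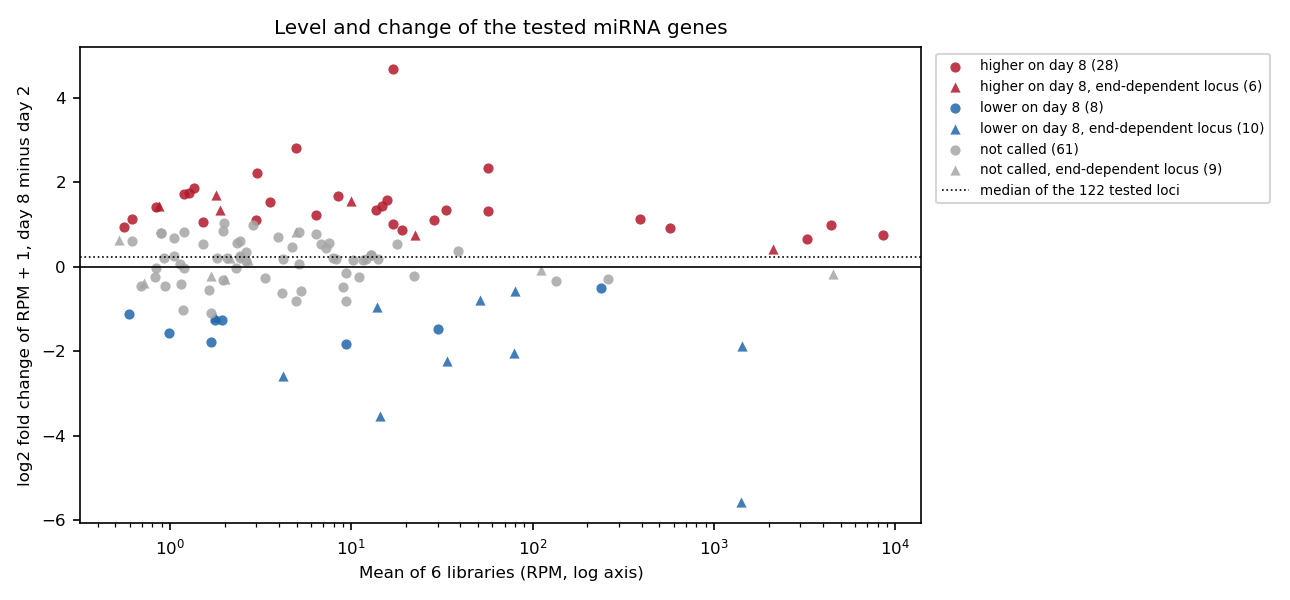
Change of the 122 tested loci against their level. The x axis is the mean of the 6 libraries (RPM, log axis), the y axis the log2 fold change of RPM + 1, day 8 minus day 2, red marks the 34 loci that were higher on day 8, blue the 18 lower and grey the 70 that did not pass the test. Triangles are end-dependent loci, which make up 10 of the 18 blue marks and 6 of the 34 red ones, and the dotted line is the median of all loci at 0.23.

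Of the tested loci, 69 had at least 1 RPM in all 6 libraries, and 19 of these were higher and 10 lower on day 8. A further 16 loci reached 1 RPM on day 8 only and 5 on day 2 only. Of the 16, 11 passed the test as higher, and of the 5 all passed as lower, but these had entered through the day on which they are high. The lowest second-highest value of a tested locus was 1.27 RPM and the highest of an untested one 0.933 RPM. Of the untested loci, 71 had a read in at least 1 of the 6 libraries and 132 had none.

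End-dependent loci made up 25 of the 122 tested loci. Of these 25, 10 were lower on day 8 (40.0%) and 6 higher (24%), against 8 lower (8.25%) and 28 higher (28.9%) of the other 97 loci. The median log2 fold change, day 8 minus day 2, was -0.22 in the end-dependent loci and 0.35 in the other loci. Within the last run (day 8 minus day 4) the medians were 0.19 and 0.17. The part of sequence ends in the differences between the days was not tested. Of the loci named below, *MIR159a*, *MIR160a*, *MIR162a*, *MIR165a*, *MIR167b*, *MIR169a*, *MIR171a* and *MIR398a* are end-dependent, and the others are marked at their values.

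*MIR319b*, a locus of the TCP-targeting miR319 family at chr5:16660469-16660640 on the minus strand, had the largest difference of all tested loci. It had 46.5, 59.3 and 67.3 RPM on day 8, against 2566, 2641 and 3053 RPM on day 2. Every day 8 library was thus far below every day 2 library, 47.7-fold by the means, and the log2 fold change was -5.56 ± 0.16 (SE, limma adjusted p = 1.97e-20). By level the locus was at place 16 of the tested loci on day 8 and at place 4 on day 2. It had 164.1 and 125 RPM on day 4 and 3314 and 2888 RPM on day 0, so that most of the difference already stood between the libraries of the earlier and the later run. Day 8 was also below day 4 within the run, with a log2 fold change of -1.31 ± 0.18 (SE, limma adjusted p = 9.25e-06).

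The other loci of the family were higher on day 8. *MIR319c*, whose miRNA is unique without its last base, had 4446, 6582 and 6525 RPM on day 8 and 2322, 3056 and 3504 RPM on day 2, with no overlap between the days and a log2 fold change of 0.98 ± 0.16 (SE, limma adjusted p = 2.83e-05). *MIR319a*, end-dependent like *MIR319b*, had 2455, 2504 and 2275 RPM on day 8 and 1617, 1848 and 1937 RPM on day 2, which also did not overlap (log2 fold change 0.42 ± 0.13 with SE, limma adjusted p = 0.0105). Neither passed the test against day 4 within the run, with log2 fold changes of -0.0066 for *MIR319c* and -0.29 for *MIR319a* (limma adjusted p = 0.987 and 0.216). *MIR319a* lost its call under median-ratio and upper-quartile scaling (limma adjusted p = 0.5 and 0.932), and *MIR319c* under upper-quartile scaling (0.0539). The call of *MIR319a* was also lost without the mean trend of limma (limma adjusted p = 0.15) and with all 13 libraries (0.415). Reads of exactly the sequence that miR319a and miR319b share fit 2 places of the genome and are in neither count. Since miR319a and miR319b are identical, the sum of their loci was also taken, after their values were seen. It was 2501, 2563 and 2342 RPM on day 8, against 4182, 4489 and 4990 RPM on day 2. Summed with *MIR319c*, the counted reads of the family came to 8320 ± 1197 RPM on day 8 and 7514 ± 995 RPM on day 2 (SD, n = 3 each). The libraries overlapped.

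The miR159 family, which targets GAMYB-like MYB genes and shares much of its sequence with miR319, also had loci that differed in opposite directions. *MIR159b*, an end-dependent locus, had 522, 606 and 695 RPM on day 8, against 2018, 2356 and 2328 RPM on day 2, and the days were far apart (3.68-fold lower on day 8, log2 fold change -1.88 ± 0.15 with SE, limma adjusted p = 8.02e-11). It was already at 623 and 559 RPM on day 4, so that day 8 minus day 4 was 0.033. Under the authors' quantile normalization its log2 fold change was -1.001, with a limma adjusted p of 0.082. *MIR159c*, which is not end-dependent, was higher on day 8 with 672, 846 and 712 RPM, against 344, 401 and 439 RPM on day 2 (log2 fold change 0.91 ± 0.15 with SE, limma adjusted p = 3.48e-05). *MIR159a* had 3965, 4389.9 and 4404 RPM on day 8 and 4576, 5268 and 4472 RPM on day 2. Its libraries did not overlap, but its log2 fold change of -0.16 ± 0.13 (SE) did not pass the test (limma adjusted p = 0.317). It did pass, as lower on day 8, under median-ratio scaling (-0.49, limma adjusted p = 0.00262), upper-quartile scaling (-0.57, 0.0195) and quantile normalization (-0.78, 1.69e-05). *MIR159a* and *MIR159b* together had 4861 ± 328 RPM on day 8 and 7006 ± 544 RPM on day 2 (SD, n = 3 each).

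The miR396 family targets GRF genes of cell proliferation. *MIR396b* had 11.2, 9.77 and 12.1 RPM on day 8 and 42.5, 71.3 and 56.4 RPM on day 2, a log2 fold change of -2.24 ± 0.41 (SE, limma adjusted p = 9.36e-05), while *MIR396a* had 28.4, 28.6 and 27.9 RPM on day 8 and 19.1, 16.9 and 13.4 RPM on day 2 (0.76 ± 0.29, limma adjusted p = 0.0369). Both loci are end-dependent and neither overlapped between the days. The call of *MIR396a* was lost under each of the 3 other scalings and without each library in turn other than day 2 replicate 1 (limma adjusted p between 0.0773 and 0.112). On day 4, *MIR396b* had 0 and 5.29 RPM and *MIR396a* 11.9 and 14.1 RPM. Both were thus higher on day 8 than on day 4 within the run, by 2.26 ± 0.46 for *MIR396b* and 1.07 ± 0.32 for *MIR396a* on the log2 scale (SE, limma adjusted p = 0.000746 and 0.0179). For *MIR396b* the direction against day 4 is the opposite of that against day 2.

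**Figure D2:**
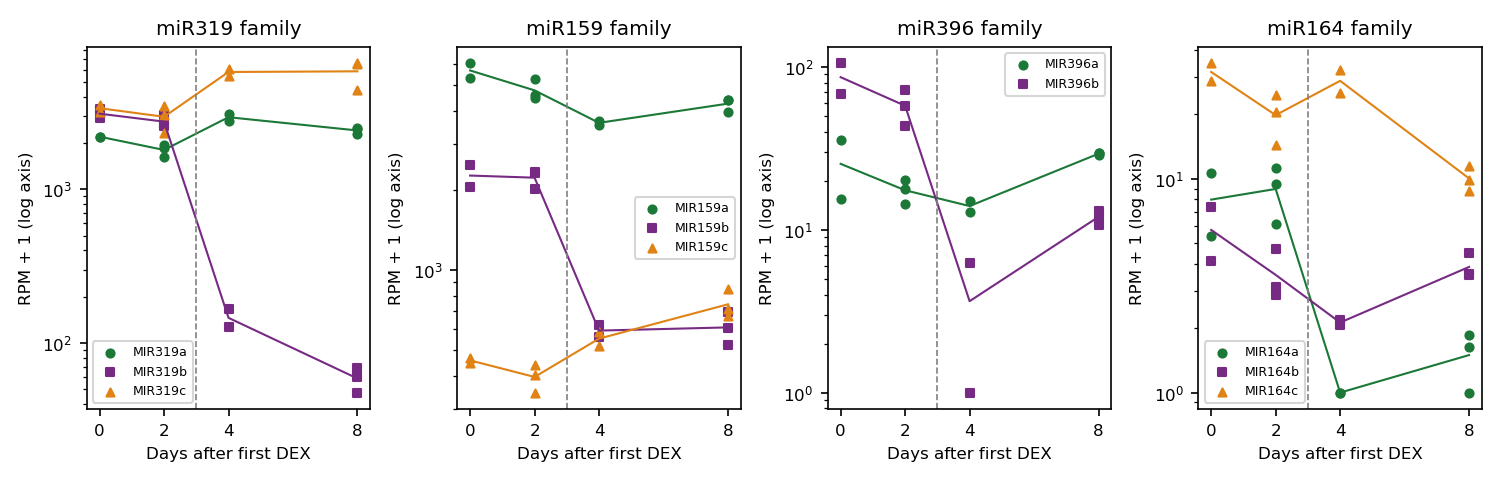
Levels of the loci of 4 families on days 0, 2, 4 and 8. The y axis is RPM + 1 (log axis), each mark a library, each line the means of 1 locus, and the dashed line separates the 2 sequencing runs. *MIR319b* had 125.1 to 164.1 RPM on day 4 and 46.5 to 67.3 RPM on day 8, below all earlier libraries, while *MIR319c* lay above its day 2 level on both.

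The CUC-targeting miR164 family had 3 tested loci, all end-dependent, and 2 were lower on day 8 (14.8% over all loci), of which *MIR164a* reached 1 RPM on day 2 only. The mature sequences of the family that are identical or differ at the last base only are shown. miR164b-3p and miR164c-3p are not shown, differ in their seeds and are each found at 1 place of the genome.
miR164a: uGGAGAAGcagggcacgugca
miR164b-5p: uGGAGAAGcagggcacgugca
miR164c-5p: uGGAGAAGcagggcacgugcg
miR164a and miR164b-5p are identical, and miR164c-5p differs from them by A21G. Reads of exactly the shared sequence are in the count of neither *MIR164a* nor *MIR164b*. *MIR164a* had 0.861, 0 and 0.634 RPM on day 8 and 10.3, 5.14 and 8.46 RPM on day 2 (log2 fold change -2.58 ± 0.45 with SE, limma adjusted p = 4.62e-05), and both day 4 libraries were listed at 0. *MIR164c* had 7.75, 10.5 and 8.88 RPM on day 8 and 19.6, 23.5 and 13.4 RPM on day 2 (-0.96 ± 0.28, limma adjusted p = 0.00672). Unlike *MIR164a*, *MIR164c* was high on day 4, at 31.3 and 24.1 RPM, and was lower on day 8 also within the run (-1.51 ± 0.31, limma adjusted p = 0.000746). *MIR164b* had 2.58, 3.49 and 2.54 RPM on day 8 and 1.87, 3.67 and 2.12 RPM on day 2, and its libraries overlapped.

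The loci of miR172, which represses *AP2* and related genes, were both lower on day 8 (14.8% over all loci), and *MIR172e* reached 1 RPM on day 2 only. Neither is end-dependent, and the arms that carry the known activity differ from each other by A1G and G21U (miR172d-3p first).
miR172d-3p: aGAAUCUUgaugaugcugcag
miR172e-3p: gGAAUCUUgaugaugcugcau
*MIR172d*, at chr3:20587904-20588027 on the plus strand, had 15.5, 18.1 and 12.1 RPM on day 8 and 49.0, 55.8 and 30.3 RPM on day 2. All day 8 libraries were below all day 2 libraries, with a log2 fold change of -1.48 ± 0.25 (SE, limma adjusted p = 4.62e-05). It had 33.5 and 41.7 RPM on day 4, and the difference stood also within the run (-1.26 ± 0.28, limma adjusted p = 0.00199). miR172d-3p itself is found at 2 places of the genome, so reads of that exact sequence are not in the count of this locus. *MIR172e* had 0.861, 0.698 and 0.634 RPM on day 8 and 3.73, 2.94 and 2.82 RPM on day 2 (log2 fold change -1.26 ± 0.44 with SE, limma adjusted p = 0.0226). Its day 8 values are those of a single read per library, and leaving out day 2 replicate 1 (limma adjusted p = 0.0817), day 8 replicate 2 (0.0629) or day 8 replicate 3 (0.0673) ended its call. The other 3 of the 5 miR172 loci in the table were not tested.

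Of the 6 tested loci of miR156 and miR157, which maintain the juvenile phase by restricting SPL genes of the transition to the adult and reproductive phases, 3 were higher on day 8 (27.9% over all loci) and 0 lower (14.8% over all loci). Of these 3, *MIR156a* and *MIR157c* reached 1 RPM on day 8 only and so entered through the day on which they are high.
miR156a-5p: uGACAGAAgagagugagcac
miR157d: uGACAGAAgauagagagcac
These sequences share a seed and occur at 6 and 4 places of the genome, so reads of exactly these sequences are not counted at any locus. *MIR157d* had 11.2, 15.4 and 13.3 RPM on day 8 and 5.13, 3.67 and 2.12 RPM on day 2 (log2 fold change 1.67 ± 0.39 with SE, limma adjusted p = 0.000983). It was low on day 4 as well, at 1.08 and 2.94 RPM, and higher on day 8 within the run by 2.31 ± 0.43 (SE, limma adjusted p = 0.000362), while day 0 had 8.80 and 9.38 RPM. *MIR156a* had 12.1, 3.49 and 1.90 RPM on day 8 and 0, 0 and 0.705 RPM on day 2 (log2 fold change 2.21 ± 0.49 with SE, limma adjusted p = 0.000723). The day 8 libraries of *MIR156a* differed among themselves by several-fold, with replicate 1 the highest, and the same library was the highest for the end-dependent *MIR157c* (6.03, 2.79 and 1.27 RPM on day 8, 0, 0.735 and 0 RPM on day 2). *MIR156b*, *MIR156c* and *MIR156d* did not pass the test. *MIR156b* had 13.8, 9.77 and 8.88 RPM on day 8 and 11.2, 11.8 and 6.35 RPM on day 2.

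The most abundant loci by counted reads were *MIR158a*, *MIR159a*, *MIR319c* and *MIR161*. Of these, *MIR158a* and *MIR161* belong to families grouped here by their targets among genes of pentatricopeptide repeat (PPR) proteins. All 3 tested loci of the PPR group were higher on day 8, against 27.9% of all loci, and none of them is end-dependent.
miR158a-3p: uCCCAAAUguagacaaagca
miR158b: cCCCAAAUguagacaaagca
miR161.1: uGAAAGUGacuacaucggggu
miR161.2: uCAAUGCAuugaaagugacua
miR158a-3p differs from miR158b by U1C only. *MIR158a* had 11251, 10225 and 10727 RPM on day 8 and 5577, 7424 and 6187 RPM on day 2, without overlap, and a log2 fold change of 0.76 ± 0.13 (SE, limma adjusted p = 4.62e-05). *MIR158b* had 93.8, 74.0 and 77.4 RPM on day 8 and 29.9, 30.9 and 36.0 RPM on day 2 (log2 fold change 1.31 ± 0.22 with SE, limma adjusted p = 3.48e-05). *MIR161* had 3726, 4419.9 and 3709 RPM on day 8 and 2018, 3062 and 2529 RPM on day 2 (log2 fold change 0.66 ± 0.15 with SE, limma adjusted p = 0.000756). Day 4 lay near day 8 for *MIR158a* (9746 and 8764 RPM) and *MIR161* (3999 and 4105 RPM). Within the run 0 of the 3 loci passed the test (limma adjusted p = 0.396, 0.116 and 0.926), against 17.2% of all loci. *MIR158a* and *MIR161* lost their calls under upper-quartile scaling (limma adjusted p = 0.113 and 0.319) and under quantile normalization (1 and 0.208). Quantile normalization sets the top locus, here *MIR158a*, to the same value in every library. *MIR161* also lost its call without the mean trend (limma adjusted p = 0.0579). *MIR158b* kept its call under every alternative.

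*MIR780* had the largest log2 fold change upward. Its precursor lies at chr4:8504141-8504314 on the minus strand, opposite to a coding exon of AT4G14810, and holds 2 mature sequences side by side.
miR780.1: uCUAGCAGcuguugagcaggu
miR780.2: uUCUUCGUgaauaucuggcau
It had 62.0, 6.98 and 33.0 RPM on day 8, and was listed at 0 in all 3 day 2 libraries and in all 4 libraries of days 0 and 4. The day 8 libraries varied by a wide margin, and their mean of 34.0 ± 27.5 RPM (SD, n = 3) was at least 17.8-fold higher than 3 reads per day 2 library would give (limma adjusted p = 9.98e-08). Without day 8 replicate 1 the mean was 19.99 RPM and the bound 10.5-fold. The locus reached 1 RPM on day 8 only and so entered through the day on which it is high. Day 8 differed from day 4 as well, within the run (limma adjusted p = 3.98e-06). How the strand of reads was used in counting is not given in the sources used here, and the same holds for all loci that overlap coding genes.

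*MIR839* and *MIR824* were the next loci upward by log2 fold change.
miR839-5p: uACCAACCuuucaucguuccc
miR824-5p: uAGACCAUuugugagaaggga
*MIR824* gives rise to an miRNA against *AGL16*, a MADS-box gene, and had 106, 90.7 and 87.6 RPM on day 8 and 15.4, 22.05 and 16.9 RPM on day 2. Each day 8 library was above every other inflorescence library, and the log2 fold change was 2.33 ± 0.25 (SE, limma adjusted p = 6.15e-08). Day 4 had 18.4 and 31.1 RPM, and the difference within the run was 1.94 ± 0.28 (SE, limma adjusted p = 1.4e-05). The precursor of miR824, at chr4:12625094-12625782 on the plus strand, lies opposite to a coding exon of AT4G24413. *MIR839* had 16.4, 6.28 and 5.71 RPM on day 8 and 0, 1.47 and 0 RPM on day 2 (log2 fold change 2.81 ± 0.51 with SE, limma adjusted p = 9.36e-05). It too was higher than on day 4 (2.37 ± 0.58, limma adjusted p = 0.00342).

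*MIR850* and *MIR863* lie 669 bases apart on the plus strand of chromosome 4, and *MIR5026* lies 1018 bases before *MIR850*. *MIR863* had 576, 537 and 499 RPM on day 8 and 203, 316 and 224 RPM on day 2 (log2 fold change 1.14 ± 0.18 with SE, limma adjusted p = 2.07e-05). *MIR850* had 19.8, 28.6 and 23.5 RPM on day 8 and 7.47, 10.3 and 4.94 RPM on day 2 (log2 fold change 1.58 ± 0.30 with SE, limma adjusted p = 0.000144). Against day 4 these neighbours went apart, since *MIR863* was higher on day 8 (1.012 ± 0.20, limma adjusted p = 0.000664) and *MIR850* was at 20.51 and 22.9 RPM on day 4 already (0.12 ± 0.34, limma adjusted p = 0.888). *MIR5026* did not pass the test, with 4.30, 5.58 and 5.71 RPM on day 8 and 6.07, 2.94 and 6.35 RPM on day 2.

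Of the loci of the small RNA pathway, *MIR168a*, whose miRNA targets *AGO1*, had 20.7, 22.3 and 26.0 RPM on day 8 and 8.87, 15.4 and 9.17 RPM on day 2 (log2 fold change 1.02 ± 0.30 with SE, limma adjusted p = 0.00686), a call lost under upper-quartile scaling (0.0905). *MIR403*, whose miRNA targets *AGO2*, was lower on day 8, with 49.1, 33.5 and 30.5 RPM on day 8 and 61.1, 72.8 and 59.3 RPM on day 2 (-0.78 ± 0.22, limma adjusted p = 0.00625). *MIR403* is end-dependent, and so is *MIR162b*, a locus of the *DCL1*-targeting miR162, which had 12.9, 16.7 and 16.5 RPM on day 8 and 4.20, 4.41 and 4.94 RPM on day 2 (1.56 ± 0.36, limma adjusted p = 0.000922). *MIR162a*, with the same mature sequences, had 2.58, 2.09 and 1.90 RPM on day 8 and 0.467, 3.67 and 2.12 RPM on day 2 and did not pass the test. With all 13 libraries the calls of *MIR168a*, *MIR403* and *MIR162b* against day 2 were lost (limma adjusted p = 0.451, 0.0863 and 0.168). Among these 4 loci only *MIR168a* passed the test of day 8 against day 4 (1.07 ± 0.33, limma adjusted p = 0.0203), against 17.2% of all loci. miR168a-5p and miR162b-3p are each found at 2 places of the genome, also with the next base. Reads of exactly these sequences are thus not in the counts of *MIR168a* and *MIR162b*.

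Among the auxin-related loci, 2 of 6 tested were lower on day 8 (14.8% over all loci) and 0 higher (27.9% over all loci). Of these 2, *MIR167d* reached 1 RPM on day 2 only. *MIR167a*, end-dependent, had 76.6, 55.1 and 60.3 RPM on day 8 and 87.3, 115 and 83.9 RPM on day 2 (-0.57 ± 0.22, limma adjusted p = 0.0373). Its call was lost under quantile normalization (limma adjusted p = 0.604) and without day 2 replicate 1 (0.0514), day 2 replicate 2 (0.169), day 8 replicate 2 (0.186) or day 8 replicate 3 (0.102). It was lowest on day 4, at 16.2 and 24.7 RPM, so that day 8 was higher than day 4 (1.62 ± 0.24, limma adjusted p = 1.82e-05). *MIR167d*, which is not end-dependent, had 0, 0.698 and 0 RPM on day 8 and 3.73, 2.20 and 3.53 RPM on day 2 (-1.78 ± 0.40, limma adjusted p = 0.000838), and both day 4 libraries were listed at 0. *MIR160a*, *MIR160b*, *MIR160c* and *MIR167b* did not pass the test. *MIR160c*, the most abundant miR160 locus, had 6.89, 5.58 and 6.34 RPM on day 8 and 11.2, 18.4 and 7.76 RPM on day 2, which did not overlap (limma adjusted p = 0.064). It passed as lower on day 8 under each of the 3 other scalings (limma adjusted p between 0.00839 and 0.0162), with a minimum of 10 RPM (0.0458) and without day 2 replicate 3 (0.0236). miR160c-5p is found at 3 places of the genome, so reads of exactly that sequence are not in the count of *MIR160c*.

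Of the HD-ZIP III-targeting loci, 1 of 4 passed the test, as lower (14.8% over all loci). *MIR166a* had 196, 217 and 180.2 RPM on day 8 and 234, 326 and 282 RPM on day 2 (log2 fold change -0.49 ± 0.17 with SE, limma adjusted p = 0.0194), and its call was lost without day 2 replicate 2 or day 8 replicate 3 (limma adjusted p = 0.0806 and 0.0813). Under quantile normalization its log2 fold change was 0. miR166a-3p is found at 7 places of the genome and miR166a-5p at 2, so reads of exactly these sequences are not in the count of *MIR166a*. *MIR165a* had 121, 94.2 and 108 RPM on day 8 and 104, 140.4 and 100.2 RPM on day 2, and its libraries overlapped. The triggers of trans-acting siRNAs, *MIR173*, *MIR390a* and *MIR390b*, gave 0 calls by limma in 3 (42.6% over all loci). *MIR173* passed as lower on day 8 under median-ratio scaling (-0.62, limma adjusted p = 0.00901), upper-quartile scaling (-0.70, 0.00665) and without day 8 replicate 1 (-0.54, 0.0379). *MIR173* had 316, 188 and 198 RPM on day 8 and 256, 375 and 231 RPM on day 2, with a log2 fold change of -0.30 ± 0.20 (SE), and *MIR390a* had 17.2, 14.7 and 10.8 RPM on day 8 and 12.1, 10.3 and 12.0 RPM on day 2. Both overlapped between the days. miR390a-5p is found at 2 places of the genome, so reads of exactly that sequence are not in the count of *MIR390a*. Of the 4 tested SCL-targeting loci, 2 were higher on day 8 (27.9% over all loci) and 0 lower (14.8% over all loci). These are *MIR170* (6.03, 3.49 and 3.81 RPM on day 8, 0.933, 2.20 and 1.41 RPM on day 2, limma adjusted p = 0.0428) and *MIR171a* (2.58, 2.79 and 3.81 RPM on day 8, 1.40, 0 and 0.705 RPM on day 2, limma adjusted p = 0.0201), named after their values were seen. Both calls were lost under median-ratio and upper-quartile scaling, which left 0 of 4. Leaving out day 8 replicate 3 ended both, day 2 replicate 2 also that of *MIR171a*, and each other library other than day 2 replicate 2 that of *MIR170*.

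Nutrient-related loci also differed. *MIR827*, a locus of phosphate homeostasis whose miRNA targets *NLA*, had 22.4, 30.7 and 37.4 RPM on day 8 and 105, 124 and 152 RPM on day 2. The days were far apart (4.20-fold lower on day 8, log2 fold change -2.05 ± 0.23 with SE, limma adjusted p = 9.98e-08), but the locus is end-dependent and stood at 15.1 and 24.1 RPM on day 4. *MIR399b*, an end-dependent locus whose miRNA targets *PHO2*, had 1.72, 0 and 0.634 RPM on day 8 and 3.27, 2.20 and 2.82 RPM on day 2 (limma adjusted p = 0.0364), and its call was lost without each library in turn other than day 8 replicate 1 (limma adjusted p between 0.0546 and 0.205). Of the copper-response loci, *MIR398a* was listed at 0 in all day 2 libraries and had 2.58, 1.40 and 1.27 RPM on day 8. Since its day 8 mean lies under the value that 3 reads give on day 2, no fold is given. *MIR398a* also reached 1 RPM on day 8 only. *MIR408* had 4.30, 2.09 and 1.90 RPM on day 8 and 1.40, 8.08 and 7.05 RPM on day 2, which overlapped, and passed as lower without day 2 replicate 1 (limma adjusted p = 0.041).

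**Figure D3:**
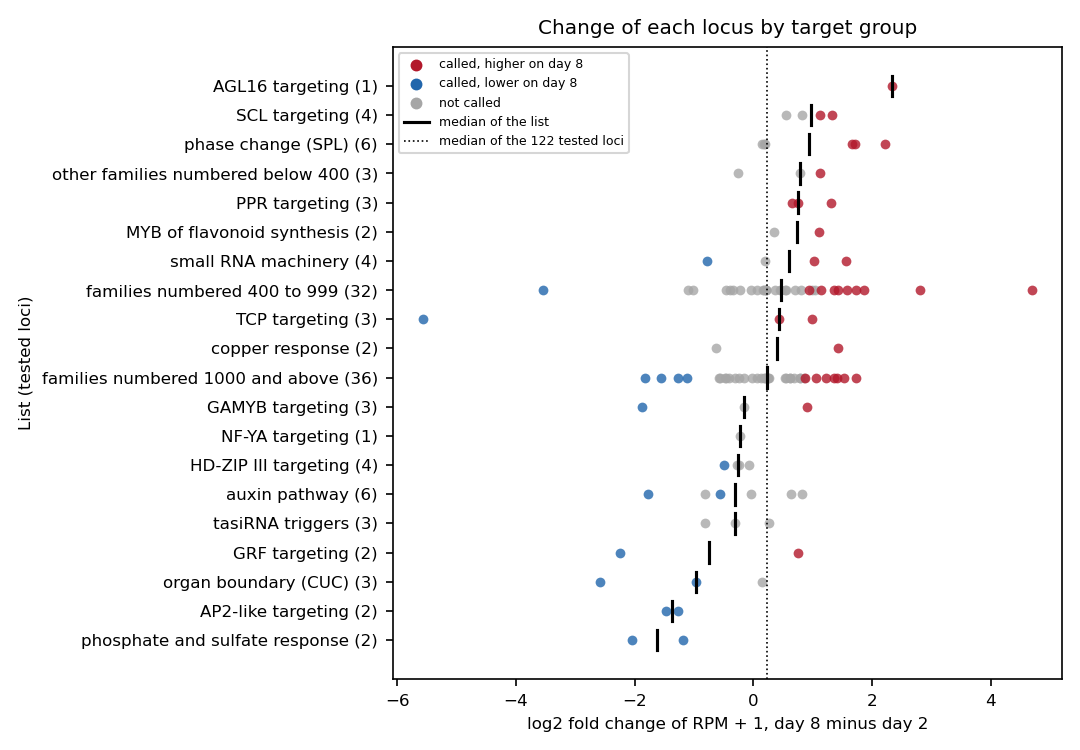
Log2 fold change of RPM + 1, day 8 minus day 2, of each tested locus by the group of genes its family targets, with the number of tested loci in brackets. Red marks loci higher on day 8, blue lower and grey those that did not pass the test, black bars are the medians of the groups and the dotted line the median of all 122 loci (0.23). All 3 PPR-targeting loci lie to the right of it and both miR172 loci (AP2-like) to the left.

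*MIR858a*, whose miRNA targets MYB genes of flavonoid synthesis, had 37.9, 40.5 and 39.3 RPM on day 8 and 14.0, 19.1 and 20.46 RPM on day 2 (log2 fold change 1.11 ± 0.24 with SE, limma adjusted p = 0.000696), and was higher also than on day 4 (0.96 ± 0.27, limma adjusted p = 0.0111). *MIR858b*, 603 bases away on the other strand of chromosome 1, had 6.89, 0.698 and 2.54 RPM on day 8 and 1.40, 1.47 and 2.82 RPM on day 2 and did not pass the test.

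The remaining families were grouped by their miRBase number. Of the 32 loci of families with 3-digit numbers from miR400 up, 9 were higher and 1 lower on day 8, and of the 36 with 4-digit numbers 7 were higher and 4 lower, against 27.9% higher and 14.8% lower over all loci. The shares of higher loci were thus close to or below that over all loci. Their medians were 0.46 and 0.23 on the log2 scale. *MIR844*, in an intron of AT2G23348 on the same strand, had 18.1, 23.7 and 24.1 RPM on day 8 and 6.07, 8.82 and 7.76 RPM on day 2, and was higher on day 8 than on day 2 (1.43 ± 0.35, limma adjusted p = 0.00181) and than on day 4 (1.54 ± 0.39, limma adjusted p = 0.00553). The call of *MIR844* against day 2 was lost with all 13 libraries (limma adjusted p = 0.188). *MIR8179* had 36.2, 53.0 and 53.9 RPM on day 8 and 11.7, 16.9 and 28.2 RPM on day 2 (1.35 ± 0.28, limma adjusted p = 0.000394). *MIR865* had 21.5, 20.2 and 17.1 RPM on day 8 and 3.27, 9.55 and 10.6 RPM on day 2 (1.35 ± 0.35, limma adjusted p = 0.0026). Both of these loci were higher in every day 8 library than in every day 2 library, and neither passed the test against day 4 (limma adjusted p = 0.26 and 0.432). *MIR5995b* had 11.2, 6.98 and 9.52 RPM on day 8 and 1.87, 3.67 and 4.94 RPM on day 2 (1.23 ± 0.40, limma adjusted p = 0.0174), and leaving out day 2 replicate 1 (limma adjusted p = 0.0871), day 8 replicate 1 (0.0646) or day 8 replicate 3 (0.0513) ended its call, as did upper-quartile scaling (0.0727) and quantile normalization (0.0552). *MIR8169* had 24.97, 26.5 and 22.2 RPM on day 8 and 7.93, 16.2 and 16.9 RPM on day 2 (limma adjusted p = 0.0191), and its call was lost under each of the 3 other scalings and without day 2 replicate 1 or day 8 replicate 2 (limma adjusted p = 0.113 and 0.0805).

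Downward, *MIR4228* had 1.72, 5.58 and 3.81 RPM on day 8 and 17.7, 10.3 and 16.9 RPM on day 2 (-1.82 ± 0.35, limma adjusted p = 0.00015). It had 14.0 and 12.9 RPM on day 4 and was lower on day 8 within the run too (-1.71 ± 0.39, limma adjusted p = 0.00199). Like *MIR172d*, it is not end-dependent. *MIR781b* had 2.58, 2.79 and 0 RPM on day 8 and 25.7, 23.5 and 31.7 RPM on day 2 (-3.54 ± 0.42, limma adjusted p = 1.66e-07), and day 4 had 1.08 and 1.17 RPM. *MIR781a* and *MIR781b* lie on opposite strands of the same stretch of chromosome 1, carry identical mature sequences and differ in the next base, shown here in capitals.
miR781a with the next base: uuagaguuuucuggauacuuaU
miR781b with the next base: uuagaguuuucuggauacuuaA
*MIR781a* had 1.72, 0 and 0 RPM on day 8 and 0.467, 0.735 and 1.41 RPM on day 2, which overlapped. Both loci are end-dependent, and without strand their reads could not be told apart.

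Besides *MIR780* and *MIR398a*, 5 loci were listed at 0 in all day 2 libraries and above 0 in all day 8 libraries, and 2 loci the other way round, each on few reads. *MIR848* had 3.44, 2.79 and 1.90 RPM on day 8, *MIR5656* had 4.30, 1.40 and 1.90 RPM and *MIR856* had 2.58, 1.40 and 3.17 RPM, with 0 on day 2 in each. Their day 8 means were at least 1.42-fold (*MIR848*), 1.33-fold (*MIR5656*) and 1.25-fold (*MIR856*) higher than 3 reads per day 2 library would give. For *MIR5656* this bound rests on day 8 replicate 1, without which its mean of 1.65 RPM is under the 1.91 RPM of 3 reads. *MIR856* was also at 0 on days 0 and 4, while *MIR5656* had 2.16 and 2.94 RPM on day 4. *MIR2937* (1.72, 1.40 and 1.90 RPM on day 8) and *MIR394b* (1.72, 0.698 and 1.27 RPM on day 8), and in the other direction *MIR8174* (2.33, 1.47 and 2.12 RPM on day 2) and *MIR5645d* (1.40, 1.47 and 0.705 RPM on day 2), lay under that value, so no fold is given. All of these passed the test (limma adjusted p from 0.000296 for *MIR856* to 0.0194 for *MIR5645d*). Each of them, like *MIR780* and *MIR398a*, reached 1 RPM on 1 day only. They had thus entered through the day on which they are high, and were named for being at 0 on the other. Leaving out day 2 replicate 1, day 2 replicate 3 or day 8 replicate 3 ended the call of *MIR394b* (limma adjusted p = 0.0508, 0.0524 and 0.0513). Leaving out day 2 replicate 1, day 2 replicate 2 or day 8 replicate 3 ended that of *MIR5645d* (limma adjusted p = 0.0792, 0.0687 and 0.057). *MIR826a* also passed, with 0, 2.09 and 1.27 RPM on day 8 and 0 in all day 2 libraries, and overlapped through its day 8 library at 0. It too had entered through day 8 only.

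**Figure D4:**
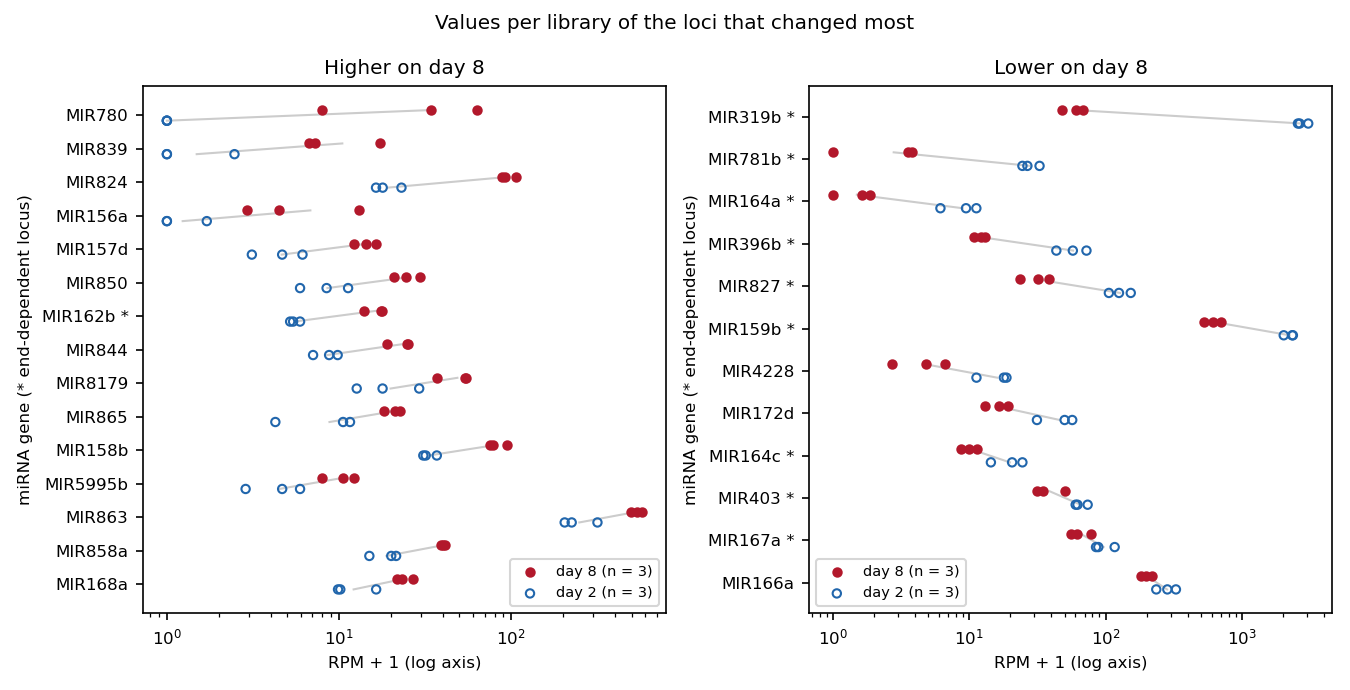
RPM + 1 per library (log axis) of the 15 loci that were higher (left) and the 12 that were lower (right) on day 8 with the largest log2 fold change, among those that passed the test, did not overlap and averaged at least 5 RPM on one of the days. Red points are day 8 and open blue circles day 2 (n = 3 each), grey lines join the means, and an asterisk marks an end-dependent locus (1 of the 15 higher and 9 of the 12 lower).

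**Figure D5:**
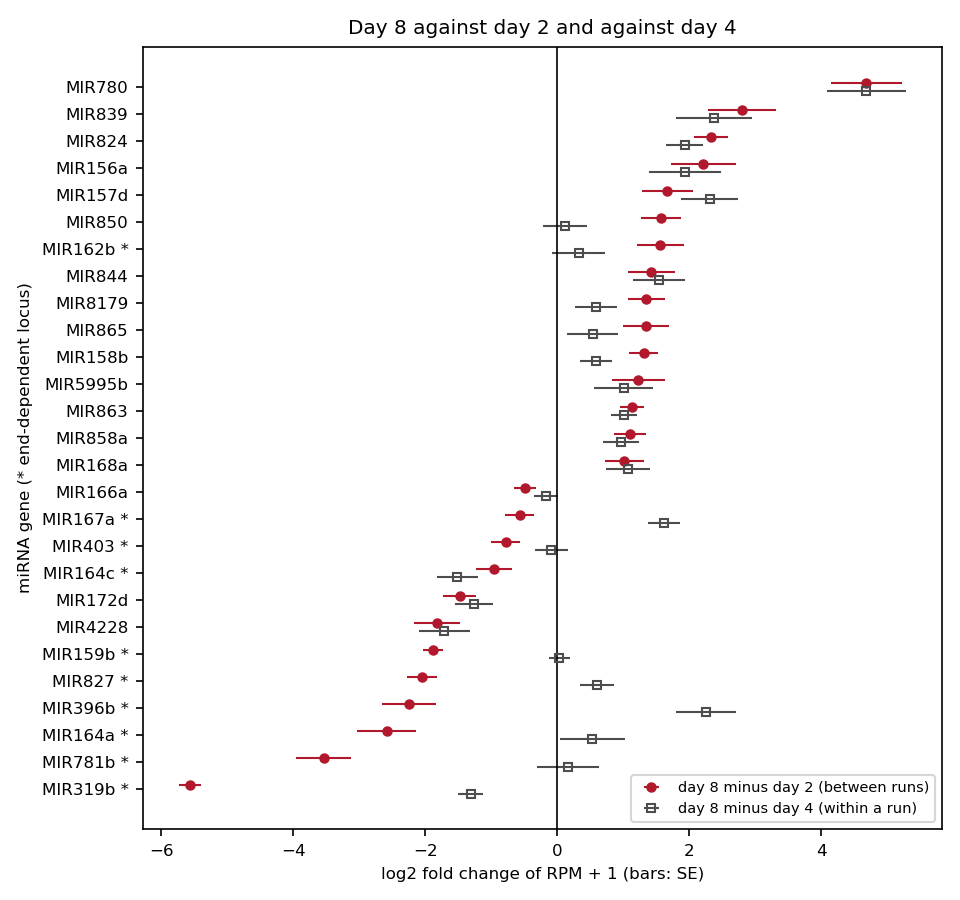
Log2 fold change of RPM + 1 (x axis, bars are SE) of the same 27 loci for day 8 minus day 2 (red circles, between runs) and day 8 minus day 4 (open squares, within a run), which share the day 8 libraries. *MIR780*, *MIR824*, *MIR157d*, *MIR172d* and *MIR4228* lie on the same side in both and pass both tests, while *MIR159b* has -1.88 against day 2 and 0.033 against day 4, and *MIR396b* and *MIR167a* lie on opposite sides.

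The annotated mature sequences of the loci were also compared by direction, as a description. Of the 50 annotated mature sequences of the 34 higher loci 35 start with U (70.0%), of the 27 of the 18 lower loci 14 (51.9%), and of all 182 of the tested loci 113 (62.1%). Lengths of 21 bases made up 80.0% of those of the higher loci, 81.5% of those of the lower loci and 74.7% of all. Sequences found at several places of the genome were 12 of the 50 of higher loci, 12 of the 27 of lower loci and 48 of all 182. The higher loci overlapped no protein-coding gene in 26 of 34 cases, the lower loci in 17 of 18 and the loci that did not pass in 43 of 70.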

How the data were processed

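Small RNA of inflorescences was sequenced by the authors, trimmed with Trim Galore and mapped with STAR to TAIR10 and counted per miRNA gene (tool versions and annotation release of the miRNA-seq: not given in the sources used here). Deposited values are RPM per precursor, normalized by the authors to mapped reads. The authors also deposited RPM of 169 genes after quantile normalization, whose log2 was used here as an alternative only. In the deposited tables, 3 columns match no sample and were not used, nor were 5 pooled columns.

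Loci with at least 1 RPM in 2 of the 6 libraries were kept, and log2(RPM + 1) was fitted with limma 3.58.1 (R 4.3.3) with a mean trend, 1 term per stage over 10 inflorescence libraries, and Benjamini-Hochberg adjustment (threshold 0.05). The scripts were tested on simulated data. Replicates differed by more than counting noise (chi-square per degree of freedom 3.11 to 12.3), and every library was kept. The loci, lists and tests were chosen with earlier results of these data known. Named loci are up to 15 in each direction by log2 fold change (passing, no overlap, a mean of 5 RPM on one day), the 6 most abundant, 2 per list, loci at 0 on one day, and families with both directions. Alternatives were the pseudocount, the minimum, 3 other scalings, no trend, other sets of libraries, a replicate block, and leaving out each library or the end-dependent loci. Positions and sequences are from RefSeq TAIR10.1, where 325 loci were matched, 324 by product name and 1 by gene name.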

Additional observations from a re-analysis of the deposited data

How the results depend on the processing

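Of the 58 loci named by rule, 44 passed the test. Of these, 26 passed under every alternative that gave a value for them, 18 lost the call under at least 1 and 0 changed direction. Loci removed from the test by the minimum of 10 RPM, or as end-dependent loci, gave no value there. The 52 calls of day 8 against day 2 became 31 with a minimum of 10 RPM (19 higher) and 34 without end-dependent loci (8 lower), where fewer loci were tested. Upper-quartile scaling gave 21 higher loci, and the cause was not tested. Without the trend 30 loci were higher and 15 lower, and with all 13 libraries 24 and 12. Of the loci named by rule, *MIR161*, *MIR166a*, *MIR167a*, *MIR319a* and *MIR396a* lost their calls without the trend. With all 13 libraries *MIR162b*, *MIR166a*, *MIR167a*, *MIR168a*, *MIR172e*, *MIR319a*, *MIR396a*, *MIR399b*, *MIR403*, *MIR844*, *MIR5995b* and *MIR8169* lost theirs. Calls over 2-fold numbered 18 with a pseudocount of 5 and 19 with a minimum of 10 RPM. Without 1 library in turn the calls ranged from 41 to 49, with 27 to 32 higher, 13 to 19 lower and 29 to 40 over 2-fold. Day 8 against day 4 then gave 12 to 20 calls, the lowest without day 4 replicate 1 (1 library is then left on day 4 and is assumed to vary like the others), and day 2 against day 0 gave 0 by limma.

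Of the 14 named loci that did not pass the test, 6 passed in the same direction under at least 1 alternative (*MIR159a*, *MIR160c*, *MIR173* and *MIR408* as given above, *MIR391* with 1.23 without day 2 replicate 2 and *MIR775* with -0.67 and -0.75 under median-ratio and upper-quartile scaling), and 6 changed sign. *MIR156b* had -0.14 under median-ratio scaling, -0.22 under upper-quartile scaling, -0.14 under quantile normalization, and between -0.10 (without day 2 replicate 3) and 0.30 (without day 2 replicate 2) when 1 library was left out, with -0.020 without day 8 replicate 1. *MIR390a* had -0.033, -0.11 and -0.012 under the same 3 scalings. *MIR165a* had 0.39 under quantile normalization, which passed as higher (limma adjusted p = 0.022), and between -0.17 (without day 8 replicate 1) and 0.074 (without day 2 replicate 2) when 1 library was left out, with 0.013 without day 8 replicate 2. *MIR775* had 0.53 under quantile normalization, which also passed as higher (limma adjusted p = 0.0107). Without 1 library, *MIR169a* lay between -0.50 (without day 8 replicate 1) and 0.063 (without day 8 replicate 3), and *MIR858b* between -0.21 (without day 8 replicate 1) and 0.90 (without day 8 replicate 2).

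Libraries with the same replicate number did not deviate together (r = -0.057, -0.032 and -0.063), so the numbers do not pair them. With the replicate block 52 loci passed, 32 higher and 20 lower, and 22 passed for day 8 against day 4. The planned test on recovered reads was not run, since 1 library held fewer low values than the recovery needs. Loci of a few reads are limited by depth, as the values of 3 reads show.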
